A study of Mus musculus with 4 samples.

Results

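The BCL2 family decides whether a cell's mitochondria stay intact or release cytochrome c, and 10 of its genes were examined in peritoneal macrophages with and without an intact Gata6. Members were taken as every probe on the array whose platform annotation named Bcl2, Bcl2l1, Mcl1, Bcl2a1b, Bcl2a1d, Bax, Bak1, Bcl2l11, Bid or Bbc3. This gave 27 of 45281 probes, for 9 of the 10 genes. Bax was not analysed here, since no probe carried that name in the annotation used. RNA came from sorted macrophages of the mouse peritoneal cavity and was measured on Illumina bead arrays, 1 array per sample. The mutants were Mac-Gata6 KO mice (LysM-cre;Gata6-floxed), in which Cre is expressed from the lysozyme M locus of myeloid cells and cuts a floxed Gata6 (2 arrays). They were set against control mice (2 arrays), and the labels do not say whether controls carried Cre or floxed alleles. All samples were untreated, strain C57BL/6, from animals 8 to 16 weeks old. The labels do not state separate animals for the 2 samples of a group. The p-values therefore speak only of variation among these samples, and that variation may be technical.

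Survival members of the family (Bcl2, Bcl2l1, Mcl1 and the Bcl2a1 genes) bind and restrain the death members. BAX and BAK1 are the effectors that open the outer mitochondrial membrane. The BH3-only proteins BIM (Bcl2l11), BID and PUMA (Bbc3) sense stress and either neutralise survival proteins or activate the effectors. Resident peritoneal macrophages are long-lived cells that maintain themselves in the cavity, and GATA6 is the transcription factor that marks their large resident population.

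In Mac-Gata6 KO macrophages Bcl2a1b and Bcl2a1d fell to about 31% of control, while Bcl2, Bcl2l1 and Mcl1 did not pass the test. Among the death genes Bbc3 was called higher at the edge of the threshold, and Bak1 was measured above control on both arrays without passing. Of the 9 measured members 1 rose, 2 fell and 6 did not pass. Among all 11628 genes tested, 6.11% were called higher and 6.14% lower, together 12.3%. A gene was called when its adjusted p was under 0.05 (limma, Benjamini-Hochberg over all genes tested). Values below are log2 normalized intensities, changes are Mac-Gata6 KO minus control on that scale, and each ± gives the fit's standard error.

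The 2 survival genes that fell are closely related paralogs on chromosome 9. The sequence ahead of each is shown because their readings moved together, though their probes may bind each other's transcripts. The windows are the 250 bases before the annotated start in RefSeq (GRCm38.p6), at chr9:89199023-89199272 on the plus strand for Bcl2a1b and chr9:88731851-88732100 on the minus strand for Bcl2a1d, 5′ to 3′. Capitals mark TGANTCA, a loosened form of the AP-1 motif that allows any middle base, and GAGGAAGT, an ETS-type motif of the kind the macrophage factor PU.1 binds. Both windows read TGAATCA, with A in the middle, and whether AP-1 factors bind it was not tested.
Bcl2a1b: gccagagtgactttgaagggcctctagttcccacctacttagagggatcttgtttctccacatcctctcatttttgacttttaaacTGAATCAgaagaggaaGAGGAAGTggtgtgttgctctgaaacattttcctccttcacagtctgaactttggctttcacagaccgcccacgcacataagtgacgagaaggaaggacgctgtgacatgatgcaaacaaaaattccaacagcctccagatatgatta
Bcl2a1d: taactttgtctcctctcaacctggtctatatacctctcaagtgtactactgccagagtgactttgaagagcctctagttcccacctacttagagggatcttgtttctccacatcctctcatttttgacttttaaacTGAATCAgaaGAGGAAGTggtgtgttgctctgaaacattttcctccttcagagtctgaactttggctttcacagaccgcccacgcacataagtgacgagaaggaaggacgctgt
In a local alignment the windows shared 198 letters over a stretch of 206, or 96.1%, with 2 mismatches and 6 gap positions. That stretch began at base 1 of the Bcl2a1b window and base 51 of the Bcl2a1d window. Aligned over their whole length, the windows shared 198 of 300 positions, or 66%. By the same measure the windows of Bcl2a1a and Bcl2a1d shared 93%. The Bcl2a1b and Bcl2a1d windows each held both motifs, TGANTCA at 164 to 158 bases before the start in Bcl2a1b and 114 to 108 in Bcl2a1d. GAGGAAGT lay at 148 to 141 bases before the start in Bcl2a1b and 104 to 97 in Bcl2a1d. The motifs did not overlap each other, both strands were searched, and TGANTCA reads the same on either strand. Among all 32851 windows of this length, 6.75% held TGANTCA and 2.44% held GAGGAAGT. Both motifs were picked after the windows had been read. Neither of these 2 windows held GATAA, a longer form of the GATA motif (found in 22.6% of all windows), or the kappaB motif (9.55%). The motifs were not particular to the genes that fell. GAGGAAGT was also found ahead of Bak1, Bcl2a1a and Bcl2a1c, and TGANTCA ahead of Bcl2a1a. Among the other members, GATAA was found ahead of Bcl2l1, and the kappaB motif ahead of Bbc3 and Bcl2l1. The shorter core GATA was not searched for, and it can be read near the 3′ end of the Bcl2a1b window. These matches describe letters and are not shown to be binding sites.

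Gata6 itself checks the labels only in part, because the place of its probes relative to the floxed stretch is not known here. Its bright probe read 13.07 and 12.83 on the Mac-Gata6 KO arrays and 13.77 and 13.66 on the control arrays. The change was -0.76 ± 0.15 (adjusted p = 0.0270), so lower in the knockout yet still bright there. It was not called once any 1 array was dropped, at changes from -0.91 to -0.63. A dimmer Gata6 probe, below detection on both knockout arrays, had a signal at least 1.74-fold lower in the knockout. It passed the detection filter only through the control arrays, so it is no separate support for the labels. The macrophage genes Csf1r, Lyz2, Mertk and Cd14 were bright on every array and did not pass. Of 9 macrophage markers tested 2 were lower, Fcgr1 (-2.94) and Adgre1 (-1.56). Markers of large peritoneal macrophages were lower for 7 of 8 tested, and those of small peritoneal macrophages higher for 9 of 10. These counts include Ltbp1, whose signal was detected in control only, and Ccr2 and Cd226, detected in the knockout only. The filter kept them through the brighter group alone, so their changes are bounds. The smallest fold differences allowed were 163 for Ltbp1, 1.68 for Ccr2 and 1.39 for Cd226. Both lists were chosen with earlier results of these data known, so the counts are not independent of them. The first holds the largest falls of all genes called lower (Ltbp1, Nt5e, Garnl3 and Itga6). Its gene Timd4 was bright and did not pass (-0.08), and Icam2 passed narrowly (-0.56, adjusted p = 0.0491). Summed normalized intensity of the first list was 33200 and 34588 on the Mac-Gata6 KO arrays, against 108328 and 101345 on the control arrays. For the second it was 89879 and 91272 on the Mac-Gata6 KO arrays, against 9265 and 9108 on the control arrays. Their part in the results on the BCL2 family was not tested. In such bulk RNA, fewer cells of a type and less RNA per cell cannot be told apart.

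Bcl2a1b encodes A1, a short-lived survival protein of blood cells that binds BIM, BID and other BH3 proteins. It read 11.10 and 11.26 on the Mac-Gata6 KO arrays, against 12.95 and 12.81 on the control arrays. Both knockout arrays lay far below both controls, and the gap was many times the spread within either group. The change was -1.70 ± 0.14 (adjusted p = 0.00134), or 30.8% of control (95% interval 24.1% to 39.4%). By size it ranked 125 among the 714 genes called lower.

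Bcl2a1d, a second copy of the same gene, read 10.99 and 11.36 in Mac-Gata6 KO macrophages and 12.88 and 12.84 in control macrophages. The groups again did not overlap, and the change was -1.69 ± 0.17 (adjusted p = 0.00243), or 31.1% of control (95% interval 23.4% to 41.4%). A dimmer Bcl2a1d probe gave 6.51 and 6.84 in the knockout, against 8.48 and 8.14 in control. Its change of -1.64 ± 0.19 also passed when each probe was tested by itself (adjusted p = 0.00417 over all 16713 kept probes). Probes of these paralogs may bind each other's transcripts, and the probe sequences were not examined. The array therefore does not settle which copy fell. Both genes were called whichever array was dropped, at changes from -1.88 to -1.51 for Bcl2a1d and -1.78 to -1.62 for Bcl2a1b. They were also called in all 13 alternatives that kept the 4 arrays.

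A probe annotated to Bcl2a1c, a further relative on the same chromosome, read 6.36 and 6.99 in Mac-Gata6 KO macrophages and 7.59 and 7.78 in control macrophages. It was called lower by -1.01 ± 0.23 (adjusted p = 0.0405) and shares the uncertainty over which copy is measured. It passed in 10 of the 13 alternatives with all arrays, but not without knockout 1 (-0.69, adjusted p = 0.110), without control 1 (0.101) or without control 2 (0.150). Expression of Bcl2a1a was not analysed here.

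Neutrophils and mast cells are known to express A1 and share the peritoneal cavity with macrophages. Of 12 neutrophil markers 2 passed the detection filter, and both were lower, S100a8 by -1.07 and Csf3r by -0.74. Their summed normalized intensity was 4100 and 4289 on the Mac-Gata6 KO arrays, against 7253 and 7317 on the control arrays. The other neutrophil markers with a probe, 9 in number and among them S100a9, Mpo, Elane and Ltf, failed the detection filter. Mast cell markers summed to 351 and 392 in the knockout and 225 and 252 in control, with 1 of 4 tested called higher (Cpa3), and Kit failed the detection filter. The part of these cells in the Bcl2a1 result was not tested.

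**Figure D1:**
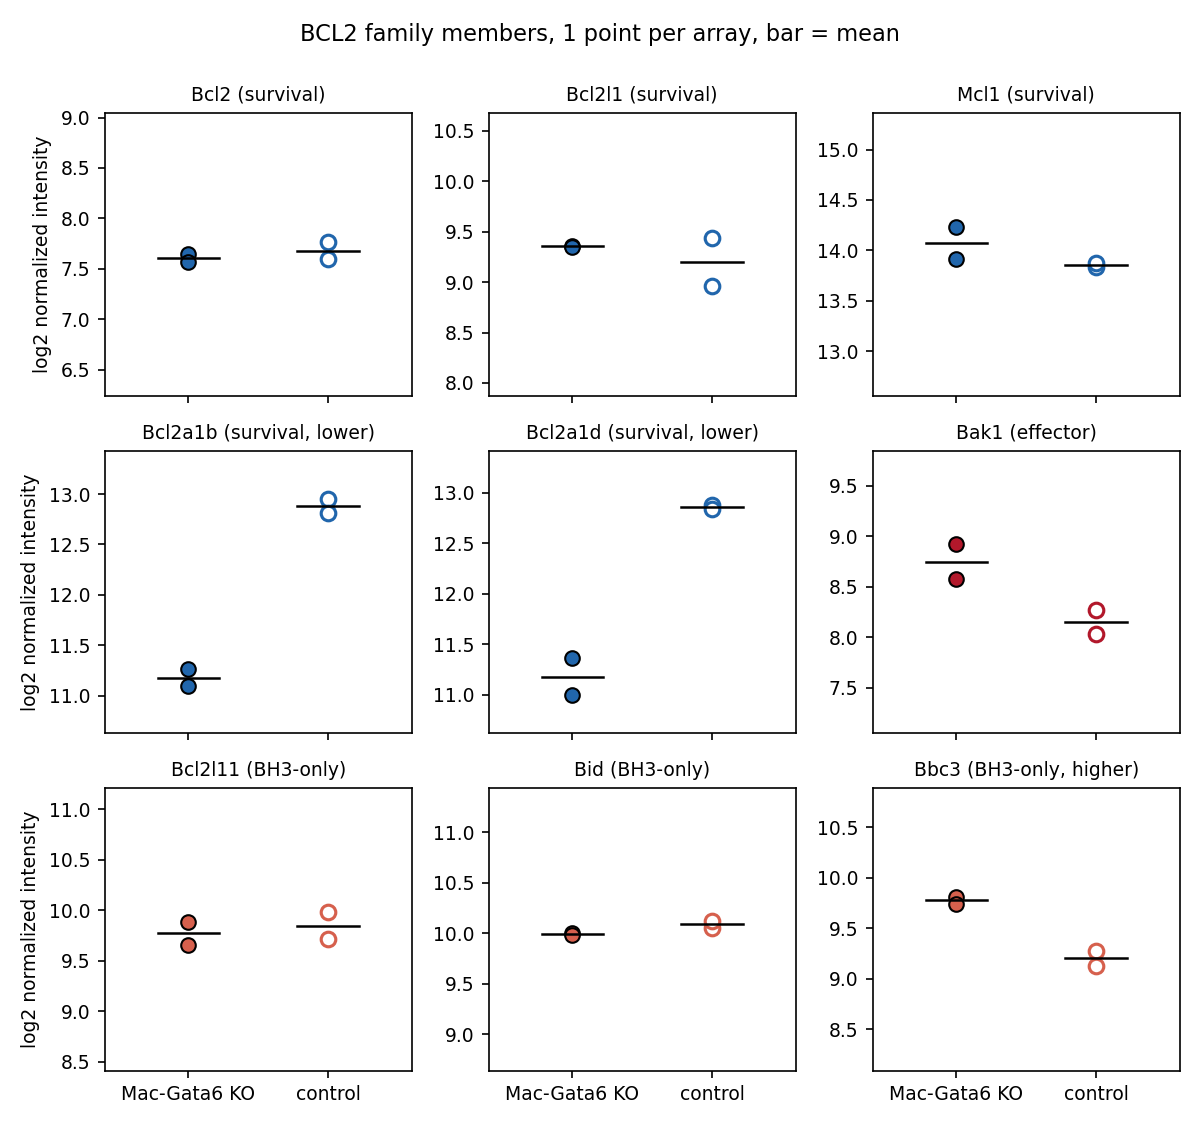
Log2 normalized intensity of the 9 measured BCL2 family members, with filled points for the 2 Mac-Gata6 KO arrays, open points for the 2 control arrays and bars for group means; every panel spans the same log2 range. Bcl2a1b and Bcl2a1d stand about 1.7 log2 units lower in the knockout, Bbc3 and Bak1 lie above control on both arrays, and the other 5 panels show group means within 0.22 of each other.

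Mcl1 encodes a survival protein that turns over quickly and that myeloid cells depend on. It read 14.23 and 13.91 on the Mac-Gata6 KO arrays and 13.83 and 13.87 on the control arrays. Both knockout arrays were above both controls, 1 of them barely, and the change of 0.22 ± 0.16 did not pass (adjusted p = 0.440, 95% interval -0.17 to 0.61). As a share of control the interval runs from 88.8% to 153%.

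Bcl2l1, the gene of BCL-XL, read 9.36 and 9.35 in Mac-Gata6 KO macrophages and 8.96 and 9.43 in control macrophages on its brightest probe. The control arrays enclosed the knockout arrays, and the change was 0.15 ± 0.19 (adjusted p = 0.659, 95% interval -0.31 to 0.61). Its other kept probes gave 0.41 ± 0.15 (adjusted p = 0.137) and 0.49 ± 0.26 (0.295). All 3 kept Bcl2l1 probes pointed upwards and none passed.

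Bcl2, the founding member, read 7.64 and 7.57 in Mac-Gata6 KO macrophages and 7.77 and 7.60 in control macrophages. The groups overlapped, with a change of -0.07 ± 0.14 (adjusted p = 0.788, 95% interval -0.42 to 0.27). Of 9 Bcl2 probes 5 failed the detection filter, so most of what the array says of Bcl2 comes from 4 dim probes. Their changes ran from -0.58 to 0.10 and none passed. The lowest came from a probe at 6.94 and 6.37 in the knockout and 7.15 and 7.32 in control (-0.58 ± 0.22, adjusted p = 0.158).

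Bak1, the 1 effector with a probe, read 8.57 and 8.92 in Mac-Gata6 KO macrophages and 8.27 and 8.03 in control macrophages. Both knockout arrays were above both controls. The change of 0.60 ± 0.18 did not pass (adjusted p = 0.0883, 95% interval 0.16 to 1.04). It passed in 5 of the 13 alternatives that kept all arrays, among them the authors' values (0.45, adjusted p = 0.0192), and in none of the 4 that dropped an array (0.42 to 0.77).

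Bbc3, whose product PUMA is a BH3-only protein induced by p53, read 9.81 and 9.74 in Mac-Gata6 KO macrophages and 9.28 and 9.13 in control macrophages. The groups did not overlap and the change was 0.57 ± 0.14, or 149% of control (95% interval 118% to 188%). Its adjusted p of 0.049988 lies at the threshold, and by size it ranked 700 among the 711 genes called higher. A dimmer Bbc3 probe had a change of 0.53 ± 0.16 (adjusted p = 0.100 over all kept probes) and the dimmest one of 0.05 ± 0.16 (0.877), neither passing. Bbc3 was lost whichever array was dropped (changes 0.50 to 0.64, adjusted p from 0.116 to 0.217). It passed in 7 of the 13 alternatives that kept all arrays, and its change averaged over its probes was 0.39 (adjusted p = 0.111).

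The other BH3-only genes did not pass the test. Bcl2l11, the gene of BIM, read 9.89 and 9.66 in Mac-Gata6 KO macrophages and 9.71 and 9.98 in control macrophages. The groups overlapped, with a change of -0.08 ± 0.17 (adjusted p = 0.816, 95% interval -0.48 to 0.33), and a second Bcl2l11 probe gave -0.09 ± 0.20. Bid, which caspase-8 cleaves to link death receptors with mitochondria, read 9.999 and 9.98 in the knockout and 10.05 and 10.13 in control. Both knockout arrays were just below both controls, a change of -0.10 ± 0.13 (adjusted p = 0.695, 95% interval -0.42 to 0.23).

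**Figure D2:**
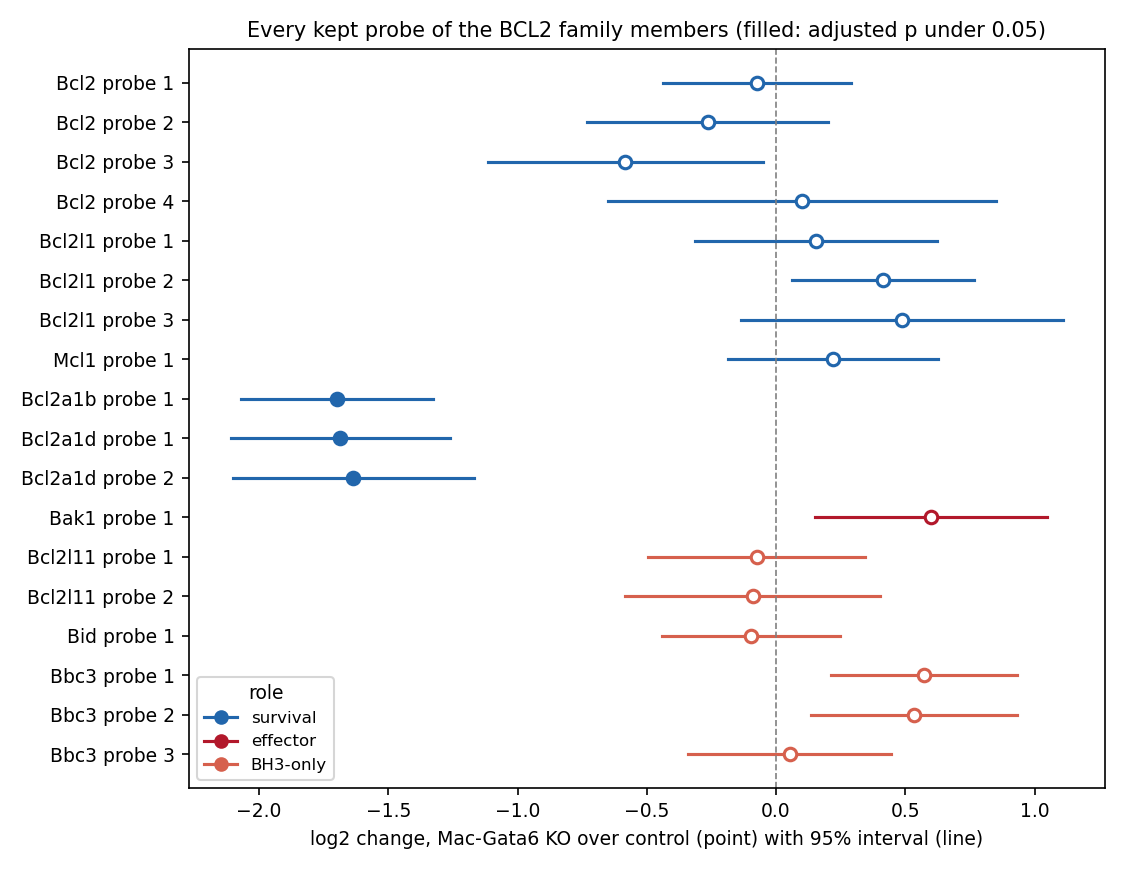
Log2 change (Mac-Gata6 KO over control) with its 95% interval for each of the 18 kept probes of the members, brightest probe first within a gene, coloured by role and filled where the adjusted p over all kept probes was under 0.05. The 3 Bcl2a1 probes lie between -1.70 and -1.64, and the other 15 lie between -0.58 and 0.60 and did not pass in this probe-level fit.

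Set side by side, the 5 survival genes had a median change of -0.07 and a mean of -0.62, and the 4 measured death genes a median of 0.25 and a mean of 0.25. The median over all genes tested was -0.01. Within the survival genes the 2 that fell, whose probes may bind each other's transcripts, set the mean. Bcl2, Bcl2l1 and Mcl1 alone had a median change of 0.15. Among the death genes Bak1 and Bbc3 had changes near 0.6, and Bid and Bcl2l11 near -0.1. Groups did not overlap for 6 of the 9 members, 3 with the knockout above and 3 below. Among all genes tested the groups did not overlap for 56.8%, 27.6% above and 29.2% below. When each probe was tested by itself, 3 of 18 kept member probes passed, all lower and all for Bcl2a1 genes, against 10.7% of all kept probes called and 5.06% called lower. With Bax not measured, the balance covers 1 of the 2 effectors, and it describes transcripts only.

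How many genes pass depends on the processing, while the count of 2 members lower did not. The share of all genes called in either direction was 19.3% without background correction, 19.3% with the authors' values and 19.1% when the variance was trended on intensity and robust. It was 16.1% with an offset of 50, 13.2% with median scaling and 12.2% with the mean of each gene's probes. Stricter detection rules gave 14.7% (detected on all 4 arrays) and 17.6% (detection p under 0.01), and no rule at all 3.51%. A fold threshold of 1.2 left 6.91%, a replicate block 9.95% and the crossed block 12.7%. Dropping control 1 left 5.61%, control 2 5.68%, knockout 1 5.21% and knockout 2 6.51%.

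Genes whose profile over the 4 arrays was closest to a called member were found by the Euclidean distance between profiles centred on their mean, among 8967 named genes. For Bcl2a1b these were Dab2ip (distance 0.11, change -1.61), Mst1r (0.12, -1.77) and Tnfsf13b (0.13, -1.65). Tnfsf13b, the gene of the B cell survival factor BAFF, was also among the nearest to Bcl2a1d (0.11), after Gpx7 (0.10, -1.76) and Krba1 (0.11). Bcl2a1b and Bcl2a1d lay 0.16 from each other. Nearest to Bbc3 were Mob1b (0.02, change 0.58), Usp36 (0.03, 0.58) and Rhoc (0.03, 0.55), the last of which did not pass. Each profile has 4 points in 2 groups, so the distance is small for any gene with a change of like size.

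The rest of the BCL2 family held 1 call. Of 18 further family genes 9 were tested, of which none rose, 1 fell (Bcl2a1c, above) and 8 did not pass, with a median change of -0.14. Over all genes tested 12.3% were called, a share close to this one. At an unadjusted p under 0.05, 1 of them was higher, Bnip2 (0.46 ± 0.14, adjusted p = 0.0915). Bcl2l2, the survival gene of BCL-W, had a change of 0.12 ± 0.13 (adjusted p = 0.623). The BH3-only gene Bad had a change of 0.26 ± 0.20 (0.466) and Bmf of -0.53 ± 0.26 (0.246). Pmaip1, the gene of NOXA, and Bok failed the detection filter, as did Bik and Hrk.

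In the machinery downstream of the mitochondria no gene was called. Of 10 genes tested for cytochrome c, the apoptosome and caspases, 0 were called in either direction in the limma fit and 1 had an unadjusted p under 0.05. Over all genes tested 12.3% were called, so a count of 0 in a list of 10 says little. The median change of the list was 0.06. Cycs, cytochrome c itself, had a change of 0.06 ± 0.15, and Apaf1, the scaffold of the apoptosome, of 0.05 ± 0.14. Casp9, the caspase activated on that scaffold, had a change of 0.08 ± 0.16. The gene with that p was Casp2, a caspase linked to DNA damage (-0.41 ± 0.14, adjusted p = 0.125).

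Among 5 inhibitors of apoptosis proteins tested 1 fell, Naip5, which is better known as a sensor of bacterial flagellin. It read 9.54 and 9.61 in Mac-Gata6 KO macrophages and 10.57 and 10.81 in control macrophages, a change of -1.12 ± 0.15 (adjusted p = 0.00649). Xiap failed the detection filter. Of 11 death receptor genes 1 fell, the TRAIL gene Tnfsf10 (-0.64 ± 0.14, adjusted p = 0.0363), which was lost whichever array was dropped (0.0968 to 0.187) and with the authors' values (-0.30, adjusted p = 0.0810). Of 13 mitochondrial membrane and related genes 1 rose, Faim, an inhibitor of Fas-induced apoptosis (0.65 ± 0.14, adjusted p = 0.0366), likewise lost whichever array was dropped (0.0884 to 0.179). Of 13 genes of BCL2 family protein turnover and binding, 0 were called in the limma fit and 3 had an unadjusted p under 0.05. The smallest p among them was that of the 14-3-3 gene Ywhab (0.37 ± 0.14, adjusted p = 0.143). Over all genes tested 12.3% were called, and beside that share the counts in these small lists say little about the lists.

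Of 17 genes tested for signalling that is known to govern Bcl2a1 and myeloid survival 1 rose and 1 fell, with a median change of -0.18. That share of calls is near the 12.3% of all genes tested. Nfkb2, the precursor of the p52 subunit of NF-kappaB, read 7.64 and 7.49 in Mac-Gata6 KO macrophages and 6.41 and 6.60 in control macrophages. Its change was 1.06 ± 0.15 (adjusted p = 0.00754), 0.99 (0.0538) without knockout 1 and 0.56 (0.00201) with the authors' values. The brightest probe of Pim1, a survival kinase gene, was detected on no knockout array, and Pim1 was at least 1.72-fold lower there (adjusted p = 0.0146). That probe passed the detection filter only through the control arrays. A second Pim1 probe had a change of -0.02 ± 0.38, and the mean of both probes did not pass (-0.49, adjusted p = 0.147). The brightest probe did not pass without knockout 1 (-0.87, adjusted p = 0.0838). Without either control array that probe failed the detection filter, and the second probe in its place gave -0.59 without control 1 and 0.56 without control 2, neither passing. Rela had a change of 0.11 and Relb of 0.53 (adjusted p = 0.0563), neither passing. Csf1r, the receptor that macrophages need to survive, had a change of 0.46 ± 0.14 (0.0971). Of the 17 genes, 4 were higher and 3 lower at an unadjusted p under 0.05. Those lower included Pim3 (-0.48, adjusted p = 0.0792) and Pik3cb (-0.47, adjusted p = 0.0864), neither passing.

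**Figure D3:**
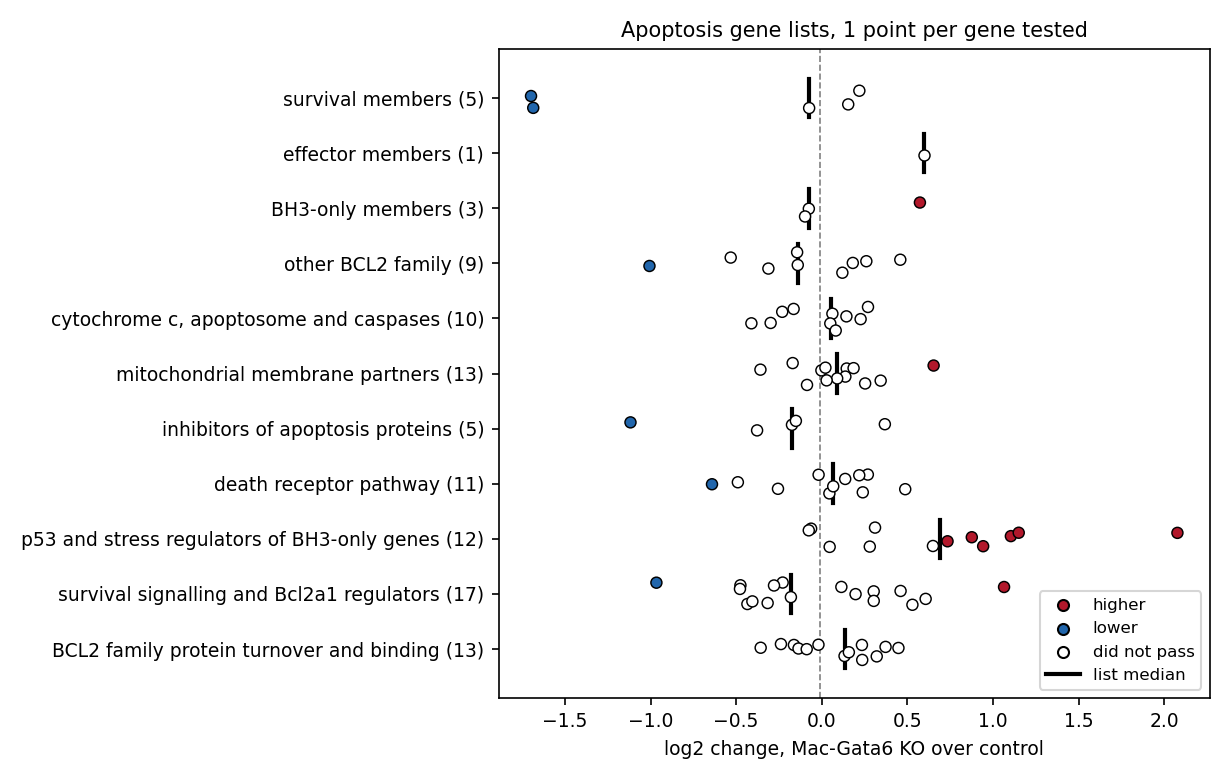
Log2 change (Mac-Gata6 KO over control) of every tested gene in the member groups and in 8 lists of apoptosis genes, with the number tested in brackets, 1 point per gene, filled where called, a bar at each list's median and a dashed line at the median of all genes. List medians lie between -0.18 and 0.13 apart from the p53 and stress list at 0.69 and the single effector, Bak1, at 0.60.

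The list of p53 and stress response genes held more calls than any other of the 8 lists. Of 12 genes tested 6 were called higher and 0 lower (0 lower also at an unadjusted p under 0.05). Among all genes tested 6.11% were called higher. The median change of the list was 0.69, against -0.01 over all genes tested. The list was chosen with earlier results of these data known, so its count and median are not independent of them. The 6 that rose are known targets of p53, the transcription factor that also induces Bbc3. Trp53 itself was not analysed here.

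Phlda3, an inhibitor of AKT signalling, read 8.91 and 9.06 in Mac-Gata6 KO macrophages and 7.11 and 6.71 in control macrophages. Its change was 2.08 ± 0.18 (adjusted p = 0.00139), and 1.39 with the authors' values. A second Phlda3 probe gave 1.73 ± 0.14. Cdkn1a, the gene of the cell cycle inhibitor p21, read 12.80 and 12.56 in the knockout and 11.41 and 11.74 in control, a change of 1.10 ± 0.18 (0.0119). Its other probes changed by 1.22 and 1.67 and passed too. Sesn2, a stress-induced regulator of mTORC1, read 7.88 and 7.69 in the knockout and 6.65 and 6.62 in control, a change of 1.15 ± 0.14 (0.00502), and of 0.64 with the authors' values.

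In each of these genes both knockout arrays lay above both controls. Smaller rises were those of the RNA-binding protein gene Zmat3 (0.94 ± 0.16, adjusted p = 0.0147), the p53-induced nuclear protein gene Trp53inp1 (0.88 ± 0.15, 0.0140) and Mdm2, which encodes the ubiquitin ligase of p53 (0.73 ± 0.14, 0.0205). Second probes of Trp53inp1 (0.92) and Mdm2 (0.79) also passed by themselves. Ccng1, another p53 target, had a change of 0.28 ± 0.16 and did not pass, nor did Foxo3, Foxo1, E2f1, Atf4 and Ddit3. The count of risen genes was 3 without control 1, 4 without control 2, 2 without knockout 1 and 4 without knockout 2. Phlda3 and Sesn2 passed each time, while Mdm2 was lost whichever array was dropped (adjusted p from 0.0787 to 0.114).

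Cdkn1a did not pass without knockout 1 (0.0757) or control 1 (0.0633), and Zmat3 not without knockout 1 (0.0824) or control 2 (0.0820). Trp53inp1 passed only without control 2 (0.0462). B cell markers moved in the same direction as these genes, with 5 of 7 tested higher and none lower. Their summed normalized intensity was 2576 and 2832 on the Mac-Gata6 KO arrays and 1765 and 1655 on the control arrays. Ms4a1, Pax5 and Ebf1 failed the detection filter. Erythroid markers were higher for 3 of 4 tested, the haemoglobin genes Hba-a1, Hbb-bs and Hbb-bt. Neither control array detected Hba-a1 or Hbb-bs, which passed the detection filter only through the Mac-Gata6 KO arrays. Their rises are therefore given as lower bounds, 5.11-fold for Hba-a1 and 5.72-fold for Hbb-bs. Hbb-bt, detected on every array, had a change of 1.74. Erythroid sums were 882 and 866 on the Mac-Gata6 KO arrays and 182 and 194 on the control arrays. Of T and NK cell markers 1 of 2 tested was higher, Cd2 (2.08), with sums of 378 and 438 in the knockout and 148 and 144 in control, and Cd3e failed the detection filter. The part of these cells in the p53 list result was not tested.

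**Figure D4:**
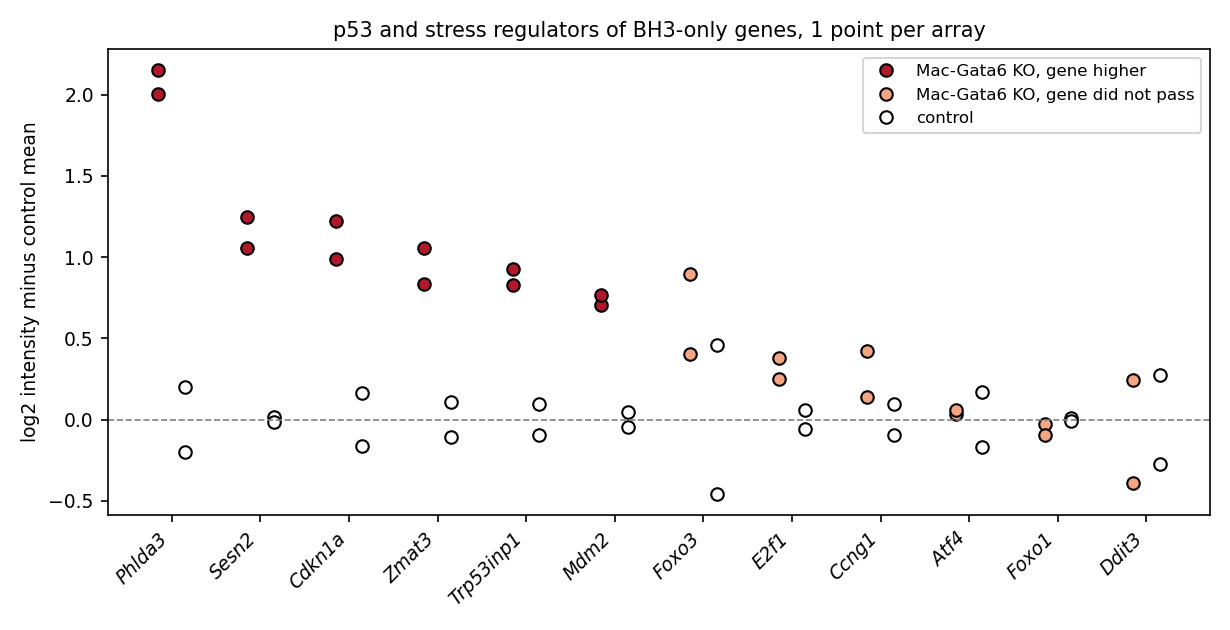
Log2 intensity minus the control mean on each array for the 12 tested genes of the p53 and stress list, in order of change, with Mac-Gata6 KO points left of the open control points. The 6 genes that rose have both knockout arrays above both control arrays, from Phlda3 at a change of 2.08 to Mdm2 at 0.73.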

How the data were processed

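Per the file headers, the authors deposited raw probe intensity values for 45281 probes on each array, each beside its detection p-value, and a second table of their processed intensity values, linear and with near-equal medians across arrays. The sources used here do not name the reading software. Medians of raw intensity lay between 136 and 146, and 35.5% to 36.4% of probes were detected per array. The number of arrays limits the precision.

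Intensities were background-corrected from the detection p-values, quantile-normalized and put on the log2 scale with an offset of 16 by neqc (limma 3.58.1, R 4.3.3). Probes with a detection p under 0.05 on at least 2 arrays were kept (16713). Probe names came from the platform annotation, checked by gene identifier against RefSeq (GRCm38.p6). Each gene was represented by its brightest kept probe, and unnamed probes stood for themselves (11628 in all). Of the members, 9 of 27 probes were dropped and all 9 genes were kept, detected on all 4 arrays.

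Groups were compared by lmFit and eBayes of limma, two-sided, without a block, with Benjamini-Hochberg adjustment over all genes. A fit over all kept probes used the same model. A gene detected on no array of a group is given as a bound against the lowest detected signal. The procedure was tested on simulated data. Members and lists were chosen with earlier results of these data known. Named genes were the members, called genes of the lists (or the smallest p where none was called), preset core genes and the 3 nearest profiles of each called member. Any other gene was named with its values in view. Alternatives covered background, offset, scaling, the authors' values, filters, probes per gene, variance model, fold threshold, replicate block and leaving out each array. Across genes, arrays that share a replicate number deviated from their group means with a correlation of -0.13, and the labels give no pairing.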

Additional observations from a re-analysis of the deposited data

How the results depend on the processing

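Bcl2a1b and Bcl2a1d were lower in all 17 alternatives run, the count of members lower staying at 2. The count of members higher was less stable. From 1 it became 2 (Bbc3 and Bak1) when background was left uncorrected, with an offset of 50, with the authors' values and with a trended, robust variance. It became 0 without a detection filter, with the mean of probes, with each probe tested by itself, with a fold threshold of 1.2, with the replicate block, and with any 1 array left out (0 to 0). Member probes called were 5 in place of 3 under the same 4 settings. The death genes' median became 0.15 with the mean of probes.

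Genes of the apoptosis lists called, 12 in all, became 21 when background was left uncorrected, 21 for the authors' values, 22 with the trend, and 3 to 8 with 1 array left out. The p53 and stress list had 2 to 4 risen with 1 array left out. Over all genes, leaving out background correction gave 1098 higher and 1142 lower, the authors' values 1100 and 1142, the trend 1089 and 1134, the fold threshold 414 and 389, and 1 array left out 249 to 390 and 238 to 416. Gata6 did not pass with the fold threshold (-0.76, adjusted p = 0.0974) or with 1 array left out (-0.91 to -0.63). For Pim1 the values with 1 array left out, -1.06 to 0.56, come from 2 probes. Its brightest probe gave -1.06 and -0.87 without a knockout array and failed the detection filter without a control array, where the second probe gave -0.59 and 0.56. Pim1 had no value when detection on all 4 arrays was asked. With the replicate block, which the labels do not support, 597 genes were higher and 560 lower. Crossing the numbers, a pairing added once the data had been seen, gave 730 and 745, with 1 member higher (Bak1 in place of Bbc3) and 2 lower. Fewer arrays leave fewer degrees of freedom, and the fold threshold drops small changes by construction. The cause of the other differences was not tested. Where an array was left out, the lone array of a group was assumed to vary like the other group. Signal over background limits Bcl2 and the dim Bcl2a1c and Pim1 probes.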
